A study of Homo sapiens with 8 samples.

Results

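The transcripts described here are those of the nuclear-encoded subunits of mitochondrial complex I, the NADH:ubiquinone oxidoreductase, in the lymphoma line WSU-DLCL2. Members were taken by name, as the rows whose symbol begins with NDUFA, NDUFB, NDUFC, NDUFS or NDUFV followed only by digits, and that reached 1 FPKM (fragments per length of gene and size of library, a unit read from the values, since no header names it) in at least 2 libraries. All 37 rows with such a name passed, out of 60592 rows in all and 12063 genes that passed the same level filter. Each of the 37 was above 1 FPKM in all 8 libraries, so the filter removed none. The name pattern takes in NDUFA4, a protein now placed in complex IV, and misses NDUFAB1, the acyl carrier protein that also sits in complex I. Both are therefore given apart.

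Complex I is the entry point of electrons from NADH into the respiratory chain, and it pumps protons across the inner mitochondrial membrane. It is an L-shaped enzyme. The matrix arm carries the flavin and a chain of iron-sulfur clusters that lead electrons to ubiquinone. The membrane arm holds the proton pumps, which are encoded in mitochondrial DNA, wrapped in nuclear-encoded accessory subunits that are needed to build and hold the arm. The nuclear subunits are made in the cytosol, imported, and put together as separate modules, so their mRNAs come from many chromosomes while the core of the membrane arm comes from the mitochondrial genome.

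WSU-DLCL2 is an established human line of diffuse large B-cell lymphoma. It was used as control cells and with FDX1 overexpressed (FDX1-OE), each kept for 48 h with the solvent DMSO or with 15 nM elesclomol (ES), a copper ionophore. FDX1 is ferredoxin 1, an iron-sulfur protein of the mitochondrion that hands electrons to other enzymes. RNA sequencing gave 2 libraries for each of the 4 groups: control cells with DMSO, FDX1-OE cells with DMSO, control cells with ES and FDX1-OE cells with ES. How FDX1 was overexpressed, what the control cells carry and whether either line is a single clone are not given in the sources used here. Nor is it stated that the pair of libraries in a group stems from separate cultures. The p-values below therefore reflect only how far these samples spread, and that spread may be technical.

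FDX1 stood at 9.88 to 10.8 FPKM in the 4 control libraries and at 56.0 to 60.7 FPKM in the 4 FDX1-OE libraries, as their labels say. The B cell markers MS4A1, CD79A, CD79B, PAX5 and CD22 were expressed in every library. CD3D, CD3G, CD2, CD7 and GNLY of the T and NK cell list were listed at 0 in all 8, as were S100A8 and S100A9 of the myeloid list. TRAC was the only 1 of 8 T and NK cell genes to pass the level filter, at 70.1 to 85.5 FPKM, none of 7 myeloid genes passed, and DCN was the only 1 of 8 epithelial and fibroblast genes that did, at 0.422 to 1.46 FPKM. DCN was lower in FDX1-OE cells with ES, by 0.67 on the log2 scale against DMSO and by 0.42 against control cells with ES, and TRAC was higher in that last comparison, by 0.19. Below the filter, CD68, ITGAM, CSF1R, NKG7, CD3E and COL1A1 were highest in the 2 FDX1-OE ES libraries. CD68 stood there at 0.760 and 1.01 FPKM, and the others at 0.444 or less. CD14 was listed at 0 in both, and LYZ, KRT8, KRT18 and KRT19 overlapped other libraries. The part of these markers in the results on complex I was not tested. Within the B cell list CD22 and CD79B fell with ES in FDX1-OE cells, by 0.53 and 0.34 on the log2 scale, and CD79A and PAX5 rose by 0.22 and 0.28. The 2 libraries of FDX1-OE cells with ES stood apart from the other 6. Their FPKM summed to 408018 and 403024 against 445716 to 451027 elsewhere, and protein-coding mitochondrial transcripts made up 14.7% and 11.9% of the sum against 16.9% to 17.6%. They also differed more from each other than other pairs: the median difference between replicates over the members was 0.18 on the log2 scale, against 0.069 to 0.084 in the other groups. The test used below pools the spread of all groups, so its SEs and p-values do not follow this difference. Sequencing depth is unknown from these values.

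In control cells with DMSO the members covered a wide range of levels, from 3.71 FPKM for NDUFV3 to 199 FPKM for NDUFB9, with a median of 50.6. FPKM is scaled to gene length, so these levels were set side by side. The lengths used and the handling of reads shared by overlapping genes are not given, so the order is approximate. NDUFB9 (199 ± 27.3, SD, n = 2), NDUFA13 (185 ± 0.464), NDUFV1 (170.4 ± 3.86) and NDUFS5 (163 ± 7.88) led the order, and NDUFB9 could not be set apart from NDUFA13 or NDUFV1 by this spread. NDUFS4 (11.3 ± 0.447), NDUFA9 (10.4 ± 0.117) and NDUFV3 were the lowest. Partners in the enzyme stood at different levels: NDUFV1, which binds NADH and the flavin, at 170.4 FPKM and NDUFS1, the large subunit next in the chain, at 15.6. The order was much the same in the other groups. Spearman's rank correlation over the 37 members with control DMSO, a description across genes, was 0.993 for FDX1-OE with DMSO, 0.99 for control with ES and 0.964 for FDX1-OE with ES.

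With ES in FDX1-OE cells 17 of the 37 members fell and 5 rose, against the same cells with DMSO (limma fitted to all 12063 genes, two-sided, with a Benjamini-Hochberg threshold of 0.05). The balance over the 12063 ran the other way, with 13.7% called lower and 47.1% called higher. With only the 6372 genes that reached 10 FPKM kept, 21.5% were called lower and 41.6% higher, and 18 members were lower and 5 higher. At an unadjusted p below 0.05 there were 23 members, against 64.9% of all genes. Both ES libraries lay below both DMSO libraries for 24 members and above them for 5, against 20.1% and 58.9% of all genes. The median change of the members was -0.22 on the log2(FPKM + 1) scale, and that of all genes tested was 0.25. The falls were mostly in the membrane arm, where 13 of 20 accessory subunits fell and 1 rose, with a median of -0.51. In the matrix arm 3 of 16 fell and 4 rose, with a median of -0.05, and those 4 rises turned negative with a median-ratio scaling. NDUFA4 is in neither arm and fell. Under 3 other scalings of the libraries (median ratio, quantile and equal FPKM totals) 16, 13 and 11 membrane-arm members were called lower. In the matrix arm 8, 3 and 1 were called lower and 0, 2 and 5 higher. Of all genes 27.2%, 24.3% and 9.06% were called lower under these, and 25.4%, 23.1% and 58.6% higher. The median of the matrix arm turned to 0.089 with equal totals and went to -0.31 with the median ratio. The difference between the arms was not tested. Leaving out replicate 1 or 2 of FDX1-OE ES gave 14 or 21 members lower and 5 or 3 higher, and leaving out FDX1-OE DMSO replicate 1 gave 13 lower and 0 higher. In bulk RNA, fewer cells of a kind and less RNA per cell cannot be told apart. The part that the lower mitochondrial share of these 2 libraries plays in the result was not tested.

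**Figure D1:**
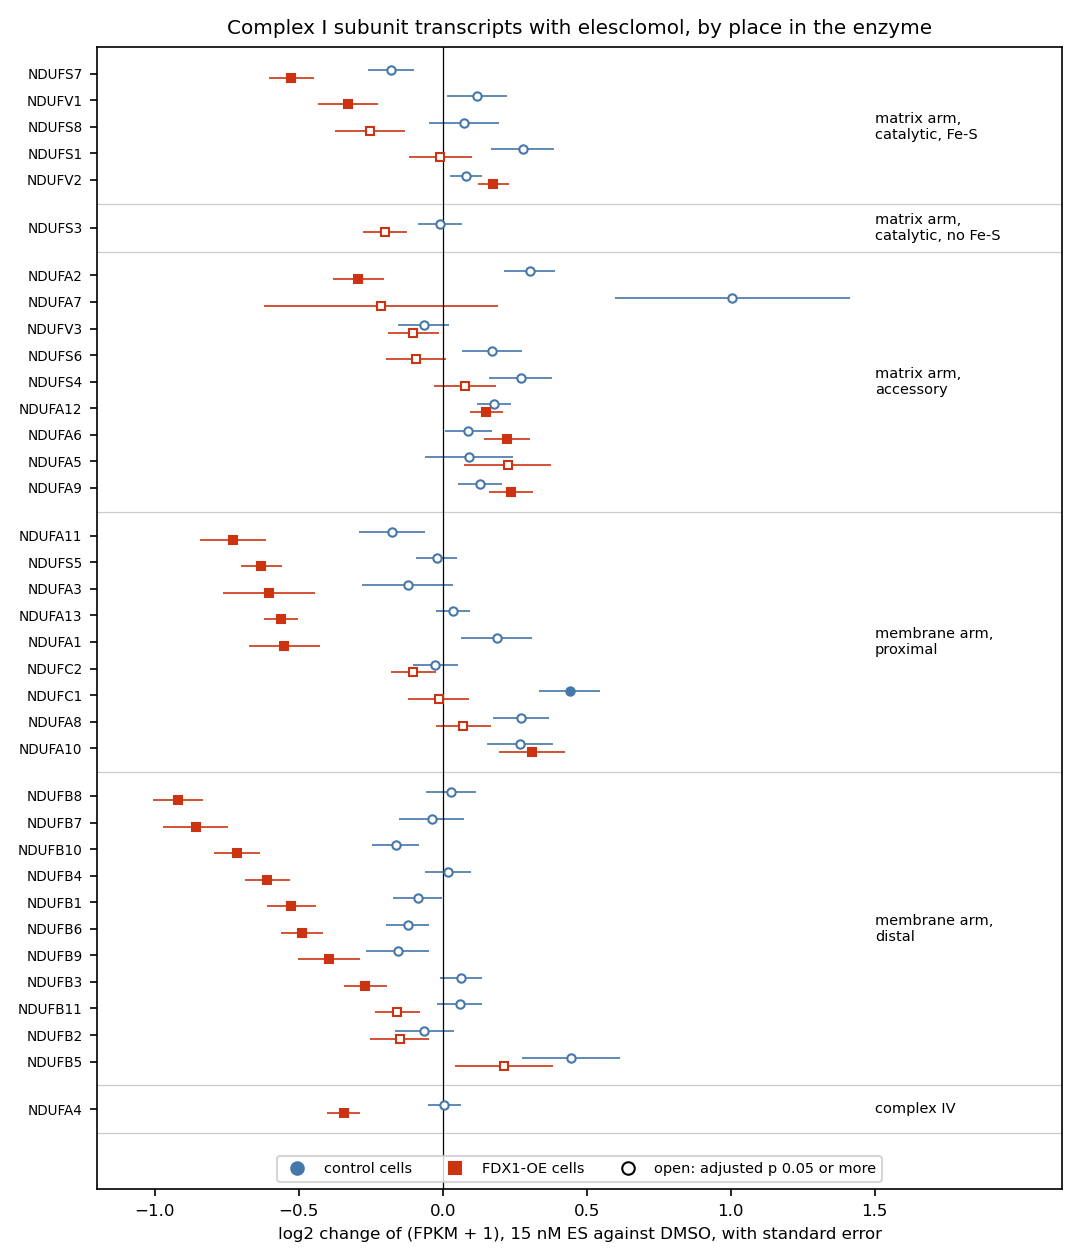
Log2 change of the members reported here with 15 nM ES against DMSO, with its standard error, in control cells (blue circles) and FDX1-OE cells (red squares), grouped by place in the enzyme. Filled symbols passed the test (limma, adjusted p below 0.05). Red filled squares to the left gather in both membrane-arm groups (13 of 20 members), and only NDUFC1 is filled in control cells.

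The distal part of the membrane arm, built around the NDUFB proteins, held the 2 largest falls, NDUFB8 and NDUFB7, and 8 of its 11 members fell and none rose. Its median change was -0.49, against -0.55 in the proximal part. NDUFB8, a single-span membrane protein often used as a marker of assembled complex I, measured 85.3 and 86.0 FPKM in control cells with DMSO, 101 and 91.8 in FDX1-OE cells with DMSO, 85.9 and 88.9 in control cells with ES and 46.4 and 54.9 in FDX1-OE cells with ES. The last 2 libraries lay below all 6 others. NDUFB8 fell by 0.92 on the log2 scale in FDX1-OE cells (SE 0.086, adjusted p = 8.64e-05), the largest fall of any member, to 0.525 times its DMSO mean. That rank holds for its own row only. With the row of an overlapping gene, AL133352.1, added, its log2 change was -0.77, a smaller fall than that of NDUFB7.

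NDUFB7, a protein of the intermembrane space with paired cysteines, was likewise lowest in both FDX1-OE ES libraries. It measured 97.5 and 100.2 FPKM in the control DMSO pair, 101 and 104 in the FDX1-OE DMSO pair, 96.1 and 96.4 in the control ES pair and 48.7 and 64.8 in the FDX1-OE ES pair, and fell by 0.86 in FDX1-OE cells (SE 0.11, adjusted p = 0.000402). NDUFB10, which also carries disulfide bonds facing the intermembrane space, went in FDX1-OE cells from 129 and 131 FPKM with DMSO to 72.5 and 85.9 with ES, a fall of 0.71 (SE 0.080). In control cells it measured 134 and 128 with DMSO and 118 and 115 with ES. All 6 libraries outside FDX1-OE ES stayed above the higher of its 2 values.

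NDUFB4 was less abundant and fell by 0.61 (SE 0.079), from 29.7 and 26.7 FPKM to 17.2 and 19.1 in FDX1-OE cells. Its control libraries held 26.5 and 26.7 FPKM with DMSO and 26.4 and 27.5 with ES, close to each other. NDUFB1, NDUFB6, NDUFB9 and NDUFB3 fell by 0.53, 0.49, 0.39 and 0.27. NDUFB9 is an LYR-motif protein that holds a copy of the acyl carrier protein in the arm. The other 3 distal members did not pass: NDUFB11 had a log2 change of -0.16, NDUFB2 of -0.15 and NDUFB5 of 0.21. NDUFB5 was the only distal member with a value above 0, and its FDX1-OE DMSO libraries, at 15.5 and 23.5 FPKM, enclosed those with ES, at 22.0 and 22.6.

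In the proximal part of the membrane arm, next to the matrix arm, 5 of 9 members fell and 1 rose. NDUFA11, a membrane protein bound to the core of the arm, measured 158 and 141 FPKM in the control DMSO pair, 149.6 and 150.1 in the FDX1-OE DMSO pair, 130.0 and 134 in the control ES pair and 78.7 and 103 in the FDX1-OE ES pair. Its fall in FDX1-OE cells was 0.73 on the log2 scale (SE 0.11, adjusted p = 0.000927), and the FDX1-OE ES libraries were the 2 lowest of the 8. NDUFS5, which faces the intermembrane space, went from 164 and 161 to 98.8 and 111 FPKM in FDX1-OE cells and fell by 0.63 (SE 0.070). It stood at 157 and 168 with DMSO and 156 and 164 with ES in control cells, where the groups overlapped.

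NDUFA13, also known as GRIM-19, was among the most abundant members and had nearly equal replicates with ES in FDX1-OE cells. It measured 185 and 186 FPKM in the control DMSO pair, 167 and 181 in the FDX1-OE DMSO pair, 186 and 194 in the control ES pair and 118 and 117 in the FDX1-OE ES pair, and fell by 0.56 (SE 0.059, adjusted p = 0.000142). NDUFA1, a small single-span protein needed for assembly, went from 67.2 and 61.5 to 37.6 and 50.5 FPKM in FDX1-OE cells, a fall of 0.55. With ES in control cells it stood at 72.1 and 77.6 FPKM, above its 64.2 and 67.0 with DMSO, and that difference did not pass the test. NDUFA3 fell by 0.60 (SE 0.16), from 34.1 and 28.9 to 17.9 and 23.0 FPKM, while its control DMSO libraries alone ranged over 35.2 and 25.9 and its control ES libraries held 28.7 and 26.7.

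The member of this group that rose was NDUFA10, a subunit with the fold of a nucleoside kinase. It measured 24.2 and 25.0 FPKM in the control DMSO pair, 22.9 and 27.9 in the FDX1-OE DMSO pair, 28.4 and 31.3 in the control ES pair and 28.7 and 34.6 in the FDX1-OE ES pair. Its rise of 0.31 in FDX1-OE cells (SE 0.11, adjusted p = 0.045) was just past the threshold, and both ES libraries were above both DMSO libraries. NDUFC1, NDUFC2 and NDUFA8 were not called, with log2 changes of -0.014, -0.10 and 0.072.

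**Figure D2:**
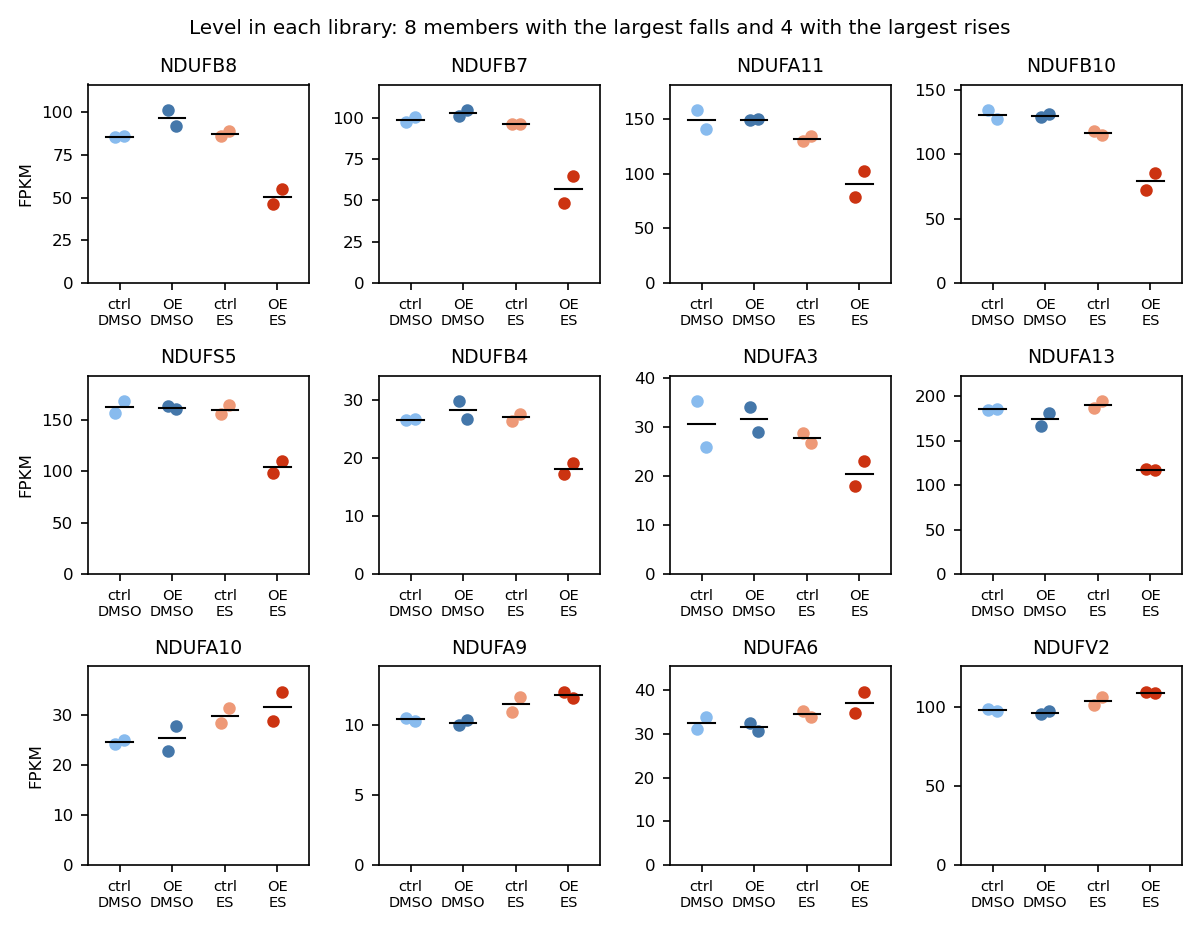
FPKM of 12 members in each library (dots), with the mean of the 2 libraries of a group (line); the vertical axes start at 0 and differ between panels, and ctrl and OE stand for control and FDX1-OE cells. The first 8 panels are the largest falls with ES in FDX1-OE cells, where those 2 libraries lie below the other 6, and the last 4 panels are the largest rises.

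The DNA before the start sites of members that fell together is shown for 4 of them, to set a promoter with a match to a known respiratory-gene factor beside one without. The sequences are the 250 bases before the transcription start in RefSeq (GRCh38.p14), written 5′ to 3′ on the strand of the gene, and 31 of the 37 members had an entry. Capitals mark matches on either strand to CCGGAAG, a core bound by GABPA (NRF2, of the ETS family), or to GCGCATGCG, bound by NRF1, both of which are known to drive nuclear respiratory genes. NDUFB7 (chr19:14572067-14572316, minus strand) and NDUFA13 (chr19:19515975-19516224, plus strand) hold the GABPA core, beginning 24 and 10 bases before the start. NDUFB4 (chr3:120596086-120596335, plus strand) holds the NRF1 letters on both strands in a single palindrome that begins 159 bases before the start, and NDUFB8 (chr10:100529924-100530173, minus strand, its outermost start) holds neither.
NDUFB7: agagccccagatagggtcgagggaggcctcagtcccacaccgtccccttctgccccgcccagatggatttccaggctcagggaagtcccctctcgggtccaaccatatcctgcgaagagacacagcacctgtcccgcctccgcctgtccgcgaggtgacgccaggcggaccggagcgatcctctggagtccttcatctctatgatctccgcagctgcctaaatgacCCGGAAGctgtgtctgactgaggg
NDUFA13: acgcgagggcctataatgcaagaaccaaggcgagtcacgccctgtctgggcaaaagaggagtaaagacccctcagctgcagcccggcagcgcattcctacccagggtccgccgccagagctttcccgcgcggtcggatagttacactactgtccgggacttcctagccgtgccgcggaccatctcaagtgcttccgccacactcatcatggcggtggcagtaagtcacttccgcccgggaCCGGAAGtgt
NDUFB4: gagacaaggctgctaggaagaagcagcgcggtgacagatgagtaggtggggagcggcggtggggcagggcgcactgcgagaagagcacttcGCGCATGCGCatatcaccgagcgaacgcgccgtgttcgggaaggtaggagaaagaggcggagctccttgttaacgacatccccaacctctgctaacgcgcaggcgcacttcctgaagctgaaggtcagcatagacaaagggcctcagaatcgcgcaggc
NDUFB8: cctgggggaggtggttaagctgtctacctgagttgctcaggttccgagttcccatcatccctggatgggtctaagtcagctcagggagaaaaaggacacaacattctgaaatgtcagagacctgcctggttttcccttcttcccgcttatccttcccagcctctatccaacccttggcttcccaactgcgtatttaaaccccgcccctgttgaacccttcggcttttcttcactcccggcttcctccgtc

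Over all members with an entry, the GABPA letters were in 5 of 31 and the NRF1 letters in 4 of 31, while 10.2% and 2.02% of 27305 genes in the same table hold them. AAGATGGC, a core of YY1, was in none of the 31, against 1.64% of all genes. Any of the 3 was found in 9 of the 31, against 13.1% of all genes. These were 5 of the 14 members called lower (NDUFA1, NDUFA13, NDUFB4, NDUFB7 and NDUFS7), 0 of 5 called higher, and 4 of 12 not called (NDUFA5, NDUFS1, NDUFS3 and NDUFS6). Matches thus occurred both among members that fell and among members that did not pass. The median share of G and C in these windows was 60.8% for members and 58.0% for all. A match of letters is a description, not a binding site.

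The catalytic subunits of the matrix arm, most of which carry the electrons, moved in both directions. Of the 5 that hold iron-sulfur clusters, 2 fell and 1 rose with ES in FDX1-OE cells. NDUFS7, next to the ubiquinone site, went from 75.7 and 88.3 FPKM with DMSO to 57.8 and 55.2 with ES, a fall of 0.53 (SE 0.079, adjusted p = 0.000742). In control cells it measured 83.1 and 87.2 with DMSO and 76.2 and 73.9 with ES, lower in both ES libraries but short of the threshold (log2 change -0.18, limma adjusted p = 0.186). NDUFV1, the NADH- and flavin-binding subunit, measured 168 and 173 FPKM in the control DMSO pair, 170.3 and 197 in the FDX1-OE DMSO pair, 179.8 and 191 in the control ES pair and 131 and 162 in the FDX1-OE ES pair. It fell by 0.33 in FDX1-OE cells (SE 0.10), and its replicates with ES there were far apart.

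NDUFV2, which pairs with NDUFV1 at the tip of the arm, rose by 0.18 (SE 0.055, adjusted p = 0.0225), from 95.3 and 97.1 to 109 and 109 FPKM. Its control cells held 98.4 and 97.4 with DMSO and 101 and 106 with ES. The partners of the same module thus moved in opposite directions in FDX1-OE cells on this scale, while NDUFV2 had a value of -0.11 with the median-ratio scaling. NDUFS1, the largest iron-sulfur subunit, showed no called change, at 15.5 and 15.6 FPKM in the control DMSO pair, 18.7 and 15.0 in the FDX1-OE DMSO pair, 18.1 and 20.1 in the control ES pair and 17.6 and 15.8 in the FDX1-OE ES pair. NDUFS8, whose clusters lead to that of NDUFS7, measured in FDX1-OE cells 75.7 and 75.5 FPKM with DMSO and 54.8 and 73.3 with ES and did not pass (log2 change -0.25, SE 0.12). Its control libraries held 75.0 and 77.1 with DMSO and 84.6 and 75.8 with ES.

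NDUFS3, a core subunit of the ubiquinone module without a cluster of its own, was not called. It measured in control cells 73.7 and 76.3 FPKM with DMSO and 72.3 and 76.8 with ES, and in FDX1-OE cells 70.8 and 74.3 with DMSO and 58.8 and 67.5 with ES. It lay lowest in FDX1-OE ES and missed the threshold by a narrow margin there (log2 change -0.20, adjusted p = 0.0501).

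Among the 9 accessory subunits of the matrix arm 3 rose and 1 fell with ES in FDX1-OE cells. NDUFA9, which binds a nucleotide beside the ubiquinone site, rose by 0.24 (SE 0.076), with 10.4 and 10.3 FPKM in the control DMSO pair, 9.94 and 10.3 in the FDX1-OE DMSO pair, 10.9 and 11.9 in the control ES pair and 12.3 and 11.9 in the FDX1-OE ES pair. NDUFA6, the LYR-motif protein of the matrix arm, rose by 0.22, from 32.6 and 30.7 to 34.7 and 39.5 FPKM. Its control cells held 31.2 and 33.8 with DMSO and 35.3 and 33.9 with ES. NDUFA12, which takes part in joining the NADH module to the rest, rose by 0.15 with an adjusted p of 0.0494, from 86.8 and 83.2 to 92.4 and 96.7 FPKM, and stood in control cells at 88.2 and 84.9 with DMSO and at 99.4 and 96.5 with ES.

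These rises were small and depended on the scaling. With the median-ratio scaling NDUFV2, NDUFA12, NDUFA6 and NDUFA9 turned to -0.11, -0.13, -0.058 and -0.029, NDUFA9 turned to -0.026 with quantile normalisation, and 0 of the 5 rises was called in every setting tried. NDUFA10 alone kept its sign throughout. By contrast all 17 falls kept their sign in all 18 settings, and 12 of them were called in each: NDUFA1, NDUFA4, NDUFA11, NDUFA13, NDUFB1, NDUFB4, NDUFB6, NDUFB7, NDUFB8, NDUFB10, NDUFS5 and NDUFS7. Of all genes called in this comparison 77.5% were higher, and 48.3% and 48.7% with the median-ratio and quantile scalings.

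The matrix-arm accessory subunit that fell was NDUFA2, a protein with a thioredoxin-like fold. It measured 43.4 and 45.8 FPKM in the control DMSO pair, 46.0 and 44.1 in the FDX1-OE DMSO pair, 52.7 and 57.8 in the control ES pair and 33.7 and 39.7 in the FDX1-OE ES pair. The ES libraries thus lay above DMSO in control cells and below it in FDX1-OE cells, where the fall was 0.29 (SE 0.088, adjusted p = 0.02). NDUFS4, NDUFS6, NDUFA5, NDUFA7 and NDUFV3 were not called, with log2 changes from -0.22 for NDUFA7 to 0.23 for NDUFA5. The replicates of NDUFA5 were far apart, at 21.4 and 14.5 FPKM with ES. NDUFA4, the subunit now counted with complex IV, had tight replicates and fell by 0.34 (SE 0.057, adjusted p = 0.00116), from 62.1 and 64.0 to 50.3 and 48.6 FPKM, and stood in control cells at 63.9 and 61.9 with DMSO and at 62.4 and 63.9 with ES.

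**Figure D3:**
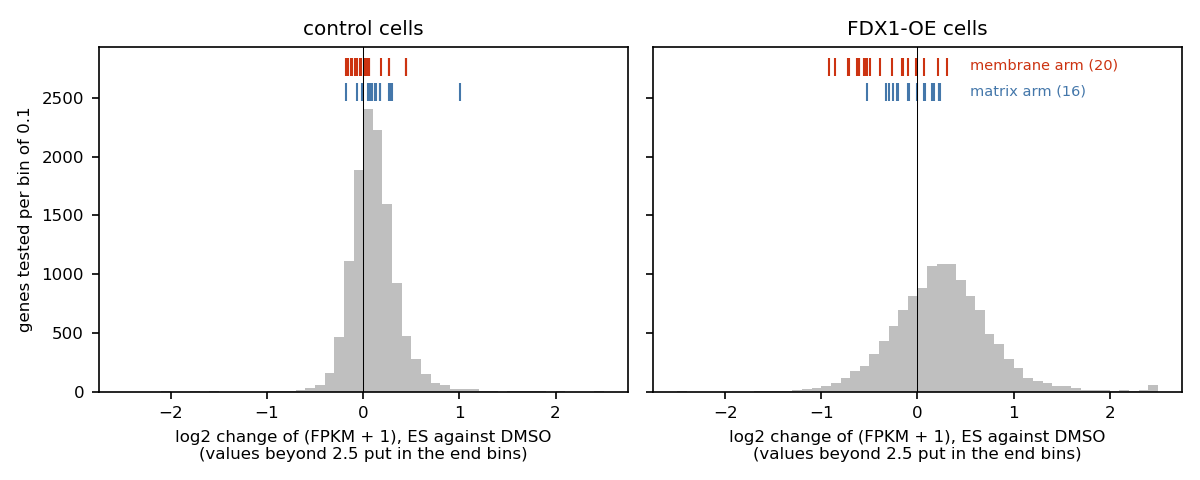
Histogram of the log2 change with ES for the 12063 genes tested (grey, bins of 0.1), in control cells (left) and FDX1-OE cells (right). Ticks above mark the 16 matrix-arm members (blue) and the 20 membrane-arm members (red), without NDUFA4; in FDX1-OE cells the median of all genes was 0.25 and that of the membrane arm was -0.51.

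The summed level of the members was lowest with ES in FDX1-OE cells. All 37 together gave 2493 ± 61.9 FPKM (SD, n = 2) in the control DMSO pair, 2539 ± 7.0 in the FDX1-OE DMSO pair, 2564 ± 31.4 in the control ES pair and 2015 ± 166 in the FDX1-OE ES pair. As a share of the library sum this was 0.555%, 0.567%, 0.573% and 0.497%. The distal membrane arm went from 849 ± 29.9 FPKM with DMSO to 608 ± 44.3 with ES in FDX1-OE cells, and the proximal part from 691 ± 2.05 to 494 ± 50.1. The matrix-arm catalytic subunits with iron-sulfur clusters went from 454 ± 26.5 to 393 ± 30.9 FPKM in those groups. The matrix-arm accessory subunits held 376 ± 2.40 and 374 ± 34.1 FPKM there, a difference smaller than the spread. Members with higher levels fell more: over the 37 members the log2 change in FDX1-OE cells and the mean log2 level in FDX1-OE DMSO, which shares those libraries with the change, had Pearson's r of -0.502, and over all 12063 genes tested r was -0.449.

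**Figure D4:**
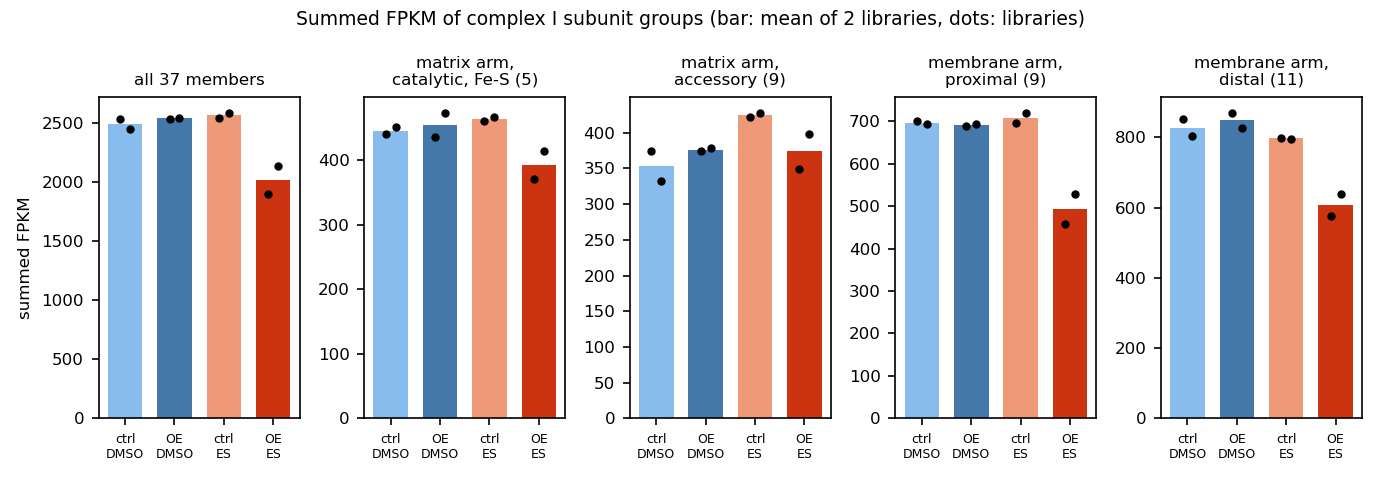
Summed FPKM of all 37 members and of 4 subunit groups (number of members in brackets); bars are the mean of 2 libraries, dots are the libraries, and axes start at 0. The FDX1-OE ES libraries are lowest for all members together, for the matrix-arm catalytic subunits with iron-sulfur clusters and for both membrane-arm groups. They are not the lowest for the matrix-arm accessory subunits.

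With ES in control cells 1 of 37 members rose and none fell (limma, adjusted p below 0.05), where 6.74% of all genes were called higher and 1% lower. At an unadjusted p below 0.05 there were 9 members, all higher, and 27.4% of all genes. Both ES libraries lay above both DMSO libraries for 16 members and below them for 6, against 48.2% and 17.1% of all genes. These shares are near those of all genes. The count of members called higher was 4 with array weights and 6 with a fit of only these 2 groups. The median of the members was 0.058 and that of all genes 0.094. NDUFC1, a small membrane-arm protein, rose by 0.44 (SE 0.11, adjusted p = 0.0431), from 14.3 and 12.6 to 19.6 and 17.6 FPKM, while FDX1-OE cells held 18.8 and 16.3 with DMSO and 16.3 and 18.4 with ES. Both control DMSO libraries were the lowest of the 8. This single call was lost with no filter, with the replicate block, with the median-ratio and quantile scalings, and on leaving out any library of control DMSO, FDX1-OE DMSO or control ES. Of all genes called 87.0% were higher, and 52.5% and 74.5% with the median-ratio and quantile scalings, and the members' median turned to -0.056 with the median ratio.

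The next members by p in control cells were NDUFA2, NDUFA12, NDUFA8 and NDUFB5, and none passed. NDUFA2 had a log2 change of 0.30 (limma adjusted p = 0.0755) and NDUFA12 of 0.18 (adjusted p = 0.0964). NDUFA8, a paired-cysteine protein of the intermembrane space, held in control cells 41.7 and 45.1 FPKM with DMSO and 52.5 and 52.7 with ES. It held 46.4 and 44.7 with DMSO and 43.1 and 53.2 with ES where FDX1 was overexpressed. NDUFB5 went from 20.4 and 17.0 to 27.4 and 24.1 FPKM in control cells, a log2 change of 0.45 with an SE of 0.17. In all 4 the control ES libraries lay above the control DMSO libraries.

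The response to ES differed between FDX1-OE and control cells for 12 members, each lower in FDX1-OE cells (limma interaction term, adjusted p below 0.05), and for none in the other direction. Over all genes 5.06% were called lower and 13.9% higher in this term, and its median was -0.32 for the members and 0.15 for all genes. At an unadjusted p below 0.05 there were 16 members, all lower, and 36.2% of all genes. The 12 were 6 distal membrane-arm members, 4 proximal ones, NDUFA2 and NDUFA4. NDUFB8 came first, with a difference of -0.95 (SE 0.12, adjusted p = 0.00411): its log2 change was 0.028 in control cells and -0.92 in FDX1-OE cells. With the row of the overlapping gene AL133352.1 added, its difference was -0.82, level with the -0.82 of NDUFB7. NDUFB7 changed by -0.038 in control and -0.86 in FDX1-OE cells, NDUFA1 by 0.19 and -0.55, and NDUFA2 by 0.30 and -0.29. NDUFA1 and NDUFA2 thus moved in opposite directions in the 2 lines, though the change in control cells passed for neither.

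NDUFS7 and NDUFV1, called lower in FDX1-OE cells, were not shown to respond differently from control cells, with interaction terms of -0.35 (limma adjusted p = 0.0641) and -0.45 (adjusted p = 0.0673). None of the 5 members that rose in FDX1-OE cells was called in this term, with values from -0.026 for NDUFA12 to 0.13 for NDUFA6. The count of 12 depended on single libraries. It was 5 without either library of control DMSO or of control ES, 3 and 4 without FDX1-OE DMSO replicate 1 and 2, and 19 without FDX1-OE ES replicate 2. All 12 kept their sign in 17 settings, and NDUFA13, NDUFB8 and NDUFS5 were called in each. Of all genes called in this term 73.4% were higher, and 38.4%, 49.0% and 89.6% with the median-ratio, quantile and equal-total scalings.

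Without ES no difference between FDX1-OE and control cells passed the test for any member. In DMSO none of the 37 was called higher or lower by limma, and 0.00829% of all genes were called higher and 0% lower. At an unadjusted p below 0.05 there was 1 member, NDUFC1, against 3.48% of all genes. The FDX1-OE pair lay above the control pair for 7 members and below it for 2, against 19.5% of all genes in each direction. NDUFC1 had a log2 difference of 0.36 (SE 0.11, unadjusted p = 0.00896, adjusted p = 0.9995 in limma). The next by p were NDUFA7 (0.81), NDUFB8 (0.17), NDUFA13 (-0.093) and NDUFB3 (0.11), where NDUFB3 measured 49.0 and 52.1 FPKM in control and 57.9 and 51.5 in FDX1-OE cells. Leaving out control DMSO replicate 1 gave 1 call, NDUFA7, whose replicates in control DMSO were far apart.

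With ES, 16 members were lower in FDX1-OE than in control cells and none was higher (limma), where 10.4% of all genes were called lower and 31.1% higher. At an unadjusted p below 0.05 there were 19 members, all lower, and 51.3% of all genes. The FDX1-OE pair lay below the control pair for 24 members and above it for 2, against 18.5% and 50.6% of all genes. The median of the members was -0.24 and that of all genes 0.16. By arm, 11 of 20 membrane-arm and 4 of 16 matrix-arm members were lower, together with NDUFA4. NDUFB8 differed by -0.78 (SE 0.086), NDUFA1 by -0.77, NDUFB7 by -0.77, NDUFA13 by -0.69, NDUFS5 by -0.61 and NDUFA2 by -0.58. NDUFS3, which was not called with ES against DMSO, was called here at -0.24 (adjusted p = 0.0373), and NDUFA3 and NDUFB9 were not, at -0.43 (adjusted p = 0.0606) and -0.26 (adjusted p = 0.0867). This comparison shares its FDX1-OE ES libraries with the one against DMSO. Of all genes called 75.0% were higher, and 45.0%, 49.1% and 88.8% with the median-ratio, quantile and equal-total scalings.

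NDUFA7 differed more between the replicates of a group than any other member. It measured 58.1 and 18.5 FPKM in the 2 control DMSO libraries, against 56.6 and 60.5 in FDX1-OE DMSO, 68.7 and 65.7 in control ES and 44.8 and 56.4 in FDX1-OE ES. AC010323.1, a row whose gene overlaps NDUFA7 and shares 3 of its introns in GENCODE release 29, mirrored it, at 8.39 and 47.1 FPKM in the same 2 control DMSO libraries. The sum of the rows was 66.5 and 65.6 FPKM there, 72.4 and 68.7 in FDX1-OE DMSO, 71.2 and 73.4 in control ES and 52.7 and 67.5 in FDX1-OE ES. Taken on the sum, the log2 change with ES in control cells went from 1.01 to 0.13, the difference between FDX1-OE and control in DMSO from 0.81 to 0.093, and the interaction term from -1.22 to -0.37. None passed the test either way. This member and this row were looked at together after NDUFA7 was seen to differ between the replicates.

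**Figure D5:**
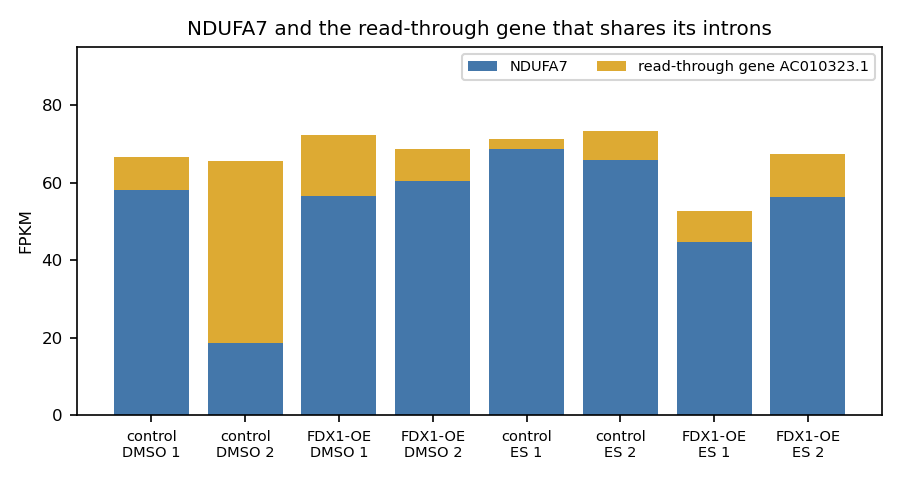
FPKM of NDUFA7 (blue) and of AC010323.1, the overlapping gene that shares its introns (yellow), stacked for each of the 8 libraries, with the axis from 0. In control DMSO replicate 2 NDUFA7 is at 18.5 and AC010323.1 at 47.1, and the stacked height there is 65.6 against 66.5 in replicate 1.

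Overlap with other genes was counted for the members only, with no share over all genes to set beside it. Of the 37 members 20 overlap, on either strand, another gene with at least 1 FPKM in some library. On the same strand 8 share introns with a coding gene. For 6 of these, whose partner is a read-through or unnamed gene, its row was added to the member. This changed the fall of NDUFB8 in FDX1-OE cells from -0.92 to -0.77 (adjusted p = 0.00022) and that of NDUFA13 from -0.56 to -0.54, and both stayed past the threshold in limma. With the added rows NDUFA11, NDUFA9 and NDUFC2 had changes of -0.73, 0.21 and -0.057, and 17 members fell and 5 rose, as without them. The partners of NDUFS3 and NDUFC1, PTPMT1 and MGARP, are genes of their own and were not added. PTPMT1 stood at 24.0 and 24.0 FPKM in the FDX1-OE DMSO pair, 27.3 and 27.7 in the control ES pair and 28.7 and 31.1 in the FDX1-OE ES pair. The sum with NDUFS3 was 94.8 and 98.3, 99.6 and 105, and 87.5 and 98.6 FPKM in those pairs, so that FDX1-OE DMSO and FDX1-OE ES overlapped, and no test of that sum was made. Strand handling is not given in the sources used here, so reads of a member and of a gene on the opposite strand cannot be told apart. The 54 NDUF pseudogene rows never exceeded 1.34 FPKM.

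The partners of these subunits were examined from fixed lists. NDUFAB1, the acyl carrier protein of complex I, went from 82.4 and 74.6 to 69.4 and 64.0 FPKM with ES in FDX1-OE cells and fell by 0.23 (limma adjusted p = 0.038). NDUFA4L2, the paralog of NDUFA4, rose by 0.56 (adjusted p = 0.00256), from 3.28 and 3.01 to 4.59 and 5.63 FPKM. The paralogs thus moved in opposite directions on this scale, where 47.1% of all genes were called higher and their median was 0.25. No other scaling is given here for NDUFAB1 or NDUFA4L2. Of 21 assembly factors, which build the enzyme without staying in it, 7 fell and NUBPL rose with ES in FDX1-OE cells, with a median of -0.061. Over all genes 13.7% were called lower and 47.1% higher there, and 27.2%, 24.3% and 9.06% lower with the median-ratio, quantile and equal-total scalings. The median-ratio scaling gave 13 lower and 0 higher with a median of -0.34, quantile normalisation 10 lower and 0 higher, and equal totals 4 lower and 5 higher with a median of 0.078. NUBPL thus did not pass under the first pair of these, at 0.073 and -0.12. NDUFAF3 fell by 0.78, NDUFAF4 by 0.92, CHCHD4, the importer of paired-cysteine proteins into the intermembrane space, by 0.60, and NDUFAF2 by 0.46. NDUFAF3 went from 42.8 and 39.4 to 21.8 and 25.2 FPKM, and was the only assembly factor called in the interaction term (-0.71, adjusted p = 0.009). Between the lines in DMSO 0 of the 21 passed the test in limma (0.00829% of all genes higher and 0% lower), with 1 at an unadjusted p below 0.05. With ES in control cells 0 passed (6.74% of all genes higher and 1% lower), with 3 at an unadjusted p below 0.05, and the median-ratio scaling called 1 lower. NDUFAF4, among those 3, was lower in both control ES libraries, with a log2 change of -0.40 (limma adjusted p = 0.0793).

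The mitochondrially encoded complex I subunits, the proton-pumping core of the membrane arm, changed in both directions. Of 7, 2 fell and 1 rose with ES in FDX1-OE cells, and 3 rose and 1 fell in control cells. Over all genes 13.7% were called lower and 47.1% higher in FDX1-OE cells, and 1% and 6.74% in control cells. MT-ND5 went from 2738 and 2728 to 1889 and 1703 FPKM in control cells and from 2577 and 2596 to 1141 and 829 in FDX1-OE cells, and fell by 0.61 and 1.41. MT-ND6, the only one of them encoded on the light strand, went from 483 and 479.7 to 224 and 150.4 FPKM in FDX1-OE cells and fell by 1.38. In control cells it went from 531 and 520 to 366 and 350 FPKM, which did not pass the test. MT-ND2 rose in both lines, by 0.73 and 0.96, to 5772 and 4718 FPKM with ES in FDX1-OE cells. Between the lines with ES 6 of the 7 were lower in FDX1-OE cells and 0 higher, and 3 were lower in the interaction term. Over all genes 10.4% and 5.06% were called lower in these. With quantile normalisation 2 and 0 of the 7 were lower, against 14.8% and 5.92% of all genes. Quantile normalisation sets the same value at each rank in every library. For transcripts this abundant its calls thus follow their rank and do not show how far their levels moved. Scaling mattered here as well: 5 fell and 1 rose in FDX1-OE cells with the median ratio, and 5 rose and 2 fell with quantile normalisation. Over all genes 27.2% and 24.3% were called lower under these 2 scalings, and 25.4% and 23.1% higher.

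The other respiratory complexes held single falls larger than any of the members, with a median close to theirs. Of 38 nuclear-encoded subunits of complexes II to V, 19 fell and 2 rose with ES in FDX1-OE cells, with a median of -0.24, against -0.22 for the members. Over all genes 13.7% were called lower and 47.1% higher in this comparison. With the median-ratio, quantile and equal-total scalings 34, 17 and 12 of the 38 were lower, against 27.2%, 24.3% and 9.06% of all genes. ATP5F1D and ATP5MC1 of the ATP synthase fell by 1.32 and 1.11, more than any of the 37 members. COX6B1 fell by 0.80 and ATP5ME by 0.94, the latter also past the 0.92 of NDUFB8. The 2 that rose were SDHC and SDHA of complex II, named after their values were seen, by 0.57 and 0.40. Of 8 tested regulators of respiratory genes 4 fell: ESRRA by 0.60, PPARGC1B by 0.44, PPRC1 by 0.40 and GABPA by 0.26. NRF1 and YY1, whose letters were searched in the promoters, did not pass as deposited, with log2 changes of -0.015 and -0.020. With the median-ratio scaling both were called lower, at -0.27 and -0.30, NRF1 was also called lower with quantile normalisation, at -0.34, and with equal totals neither passed, at 0.11 and 0.12. Over the 8 tested, 7 were called lower with the median ratio, 6 with quantile normalisation and 3 with equal totals, where GABPA did not pass and GABPB1 was higher. PPARGC1A was listed at 0 in every library.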

How the data were processed

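Total RNA was extracted with TRIzol and made into libraries with the VAHTS Universal V6 kit, per the labels' protocols. The authors deposited 1 table of FPKM values per library. HISAT2, HTSeq, R 3.2.0 and the build hg19 are named, without roles, per the submitters' processing notes, and the tool that made the FPKM, the strand setting and the read depth are not given in the sources used here, so neither depth nor its precision can be stated. The unit was taken from the values and the way the tables were described for this work.

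Genes that reached 1 FPKM in 2 or more libraries were analysed on the log2(FPKM + 1) scale with limma 3.58.1 in R 4.3.3 (variance trend, 4 group means, all 8 libraries, 4 residual and 4.25 prior degrees of freedom, two-sided, Benjamini-Hochberg threshold 0.05), in 5 comparisons. A fold change on this scale understates the change of low genes. The procedure was first run on simulated data in which all genes had the same spread and few were changed. These data differ in both, so that run does not give error rates for them. The median over members is a description with no test. Members and lists were chosen with earlier results of these data known. Every member could be named. Values in each library are given for the catalytic subunits, the 8 largest falls and up to 6 rises with ES in FDX1-OE cells, up to 8 in the interaction term, and the 5 with the smallest p where fewer than 5 were called. Of other lists, up to 4 are named by p. Replicate numbers are shared between groups, but same-numbered libraries did not deviate together (correlations from -0.050 to 0.079), so no block was used. Alternatives were the pseudocount (0.1), filters (none, 10 FPKM), 3 scalings, array weights, a replicate block, a fit of 2 groups, and each library left out. Promoter sequences are from RefSeq. Gene overlaps are from GENCODE release 29. The values of 1 member and 1 B cell marker are not reported here; both stayed in the fit and in the counts and sums.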

Additional observations from a re-analysis of the deposited data

Results flagged for a closer look

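A difference between the ES responses of FDX1-OE and control cells (limma interaction term, 4 groups of 2 libraries) was found for 12 members, each more negative in FDX1-OE cells. On the log2 scale the term was -0.95 for NDUFB8 (adjusted p = 0.00411), -0.82 for NDUFB7 (adjusted p = 0.0145), -0.74 for NDUFA1 (adjusted p = 0.0251) and -0.63 for NDUFB4 (adjusted p = 0.0108). It was -0.61 for NDUFS5 (adjusted p = 0.00842), -0.60 for NDUFA13 (adjusted p = 0.00532), -0.60 for NDUFA2 (adjusted p = 0.0178) and -0.55 for NDUFA11 (adjusted p = 0.0484). The remaining values were -0.55 for NDUFB10 (adjusted p = 0.0168), -0.44 for NDUFB1 (adjusted p = 0.0392), -0.37 for NDUFB6 (adjusted p = 0.0444) and -0.35 for NDUFA4 (adjusted p = 0.023). In the 2 FDX1-OE libraries with ES, protein-coding mitochondrial transcripts made up 14.7% and 11.9% of all FPKM, against 16.9% to 17.6% in the other 6, and the part of this in the differences was not tested.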

How the results depend on the processing

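The 17 falls with ES in FDX1-OE cells kept their sign in all 18 settings and 12 were called in each, as were 12 of the 16 lower members with ES between the lines. Counts of rises, and of single calls, moved. For rises with ES in FDX1-OE cells (5) the count was 3 with no filter, 0 with median-ratio scaling, 2 with quantile normalisation, 0 with array weights and 0 with a fit of only those 2 groups. Median-ratio scaling turned NDUFA12 to -0.13, NDUFA6 to -0.058, NDUFA9 to -0.029 and NDUFV2 to -0.11, and quantile normalisation turned NDUFA9 to -0.026. For rises in control cells (1) the count was 0 with no filter, median-ratio scaling and quantile normalisation, 4 with array weights and 6 with the fit of 2 groups. With equal FPKM totals 3 members were higher in FDX1-OE cells with ES and 1 in the interaction term. Members lower in FDX1-OE cells with ES numbered 25 with median-ratio scaling, and those lower in the interaction term numbered 5 with no filter. The cause was not tested.

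Medians of the members moved with the scaling of the libraries, which also moves the median of all genes (0.25 with ES in FDX1-OE cells, 0.0021 with median-ratio scaling and 0.37 with equal totals). With median-ratio scaling they were 0.012 between the lines in DMSO, -0.41 between the lines with ES, -0.50 with ES in FDX1-OE cells, -0.50 in the interaction term and -0.056 in control cells, where the sign reversed. With equal totals they were 0.018, -0.10, -0.074 and -0.19 in the first 4 of these, and with quantile normalisation the first was 0.032.

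Leaving out 1 library at a time assumes that the lone library of a group varies like the others. Between the lines in DMSO it gave 0 to 1 member higher and medians from 0.0045 to 0.027, and with ES 0 to 1 higher, 12 to 20 lower and medians from -0.32 to -0.19. ES gave 0 to 5 higher, 0 to 1 lower and medians from 0.039 to 0.058 in control cells, and 0 to 5 higher, 13 to 21 lower and medians from -0.30 to -0.11 in FDX1-OE cells. The interaction term had 0 to 1 higher, 3 to 19 lower and medians from -0.35 to -0.29.

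Over all genes, the counts of calls also ranged over the settings that left out no library of a group. Between the lines with ES they ran from 1723 to 5867 higher and 739 to 2218 lower (3757 and 1251). With ES they ran from 48 to 2062 and 10 to 461 in control cells (813 and 121). In FDX1-OE cells they ran from 2651 to 7063 and 1093 to 3287 (5682 and 1652). In the interaction term they ran from 686 to 3466 and 310 to 1134 (1681 and 610). Part of these ranges is a change in the number of genes tested. It was 12063, but 6372 with the 10 FPKM filter and 28582 with no filter. The 2651 is 41.6% of 6372, against 47.1% in the main fit.

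With the replicate block, 3 members rose and 18 fell with ES in FDX1-OE cells, 0 rose in control cells, 15 were lower between the lines with ES and 10 were lower in the interaction term. The groups share only a number, with correlations of the deviations from -0.050 to 0.079. The sums with read-through genes were chosen after seeing the data. With 2 libraries a group and unknown depth, small changes of low members such as NDUFV3 could not be resolved.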
